A study of Mus musculus with 12 samples.

Results

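The kainate receptor subunits are the 5 genes Grik1, Grik2, Grik3, Grik4 and Grik5, chosen by gene name from a table of 28842 genes measured by RNA sequencing in mouse prefrontal cortex. All 5 were present and all 5 passed the filter on low values, which 13016 genes passed. The 12 libraries came from wild-type male C57BL/6J mice, 6 per group. Between postnatal days 28 and 42, one group received saline and the other cocaine at 15 mg/kg. Both groups then had a pre-test on day 75 and 1 mg/kg cocaine in place preference training on days 76 and 77, so the saline group is not free of cocaine. Place preference scores how long an animal stays where it met the drug. Tissue was taken on day 78, soon after the preference test. The comparison therefore asks what differed in adulthood after cocaine in adolescence, over a shared adult treatment. The labels also carry a time tag: day 0 for the odd-numbered libraries of each group and day 5 for the even-numbered ones. These days match none of the postnatal days above, and the tag was not used to form groups. Nothing in the labels ties a library to its own mouse. The p-values below therefore reflect only how far these libraries spread, which may be technical.

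Kainate receptors are glutamate-gated cation channels built from 4 subunits. GluK1, GluK2 and GluK3 (genes Grik1 to Grik3) are the low-affinity subunits and can form channels by themselves. GluK4 and GluK5 (Grik4 and Grik5) bind kainate with high affinity but reach the surface as working channels only together with a low-affinity subunit. In cortex the receptors sit on both sides of the synapse, where they adjust transmitter release and carry slow synaptic currents. Neto1 and Neto2 are auxiliary membrane proteins that bind the receptor and slow its currents. The channel pore of GluK1 and GluK2 is also set by RNA editing: an adenosine in a glutamine codon of the pore loop is converted to inosine, which is read as arginine (the Q/R site) and lowers calcium entry.

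The coding sequence around that pore codon shows how the 5 genes are related, and it is printed because it holds the site at which Grik1 and Grik2 transcripts are edited. Each run below is the mouse reference coding strand from GENCODE M21 transcripts (build GRCm38), 63 bases, 5′ to 3′, and the capitals mark the glutamine codon.
Grik1: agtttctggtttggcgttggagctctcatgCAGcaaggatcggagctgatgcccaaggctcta
Grik2: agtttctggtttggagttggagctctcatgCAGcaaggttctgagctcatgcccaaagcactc
Grik3: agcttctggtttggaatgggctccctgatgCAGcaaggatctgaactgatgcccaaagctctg
Grik4: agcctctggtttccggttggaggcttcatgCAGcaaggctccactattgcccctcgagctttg
Grik5: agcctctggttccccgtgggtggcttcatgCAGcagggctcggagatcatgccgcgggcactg
All 5 carry the same codon, CAG, at this place. Grik1 and Grik2 matched at 56 of the 63 bases, and each of them matched Grik3 at 51. Grik4 and Grik5 matched each other at 46 bases, while the low-affinity genes matched Grik4 at 38 or 39 and Grik5 at 41 to 44. Over the whole aligned coding sequence, identity was 69.2 to 72.0 percent among Grik1, Grik2 and Grik3, and 70.6 percent between Grik4 and Grik5. Between the 2 classes it was 51.7 to 56.4 percent, so the sequences split by the same classes as the affinities. The longest stretch of bases that any pair shared exactly was 46, between Grik2 and Grik3. Reads summed per gene do not show whether the codon was edited.

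The codon lies at chr16:87940542-87940544 in exon 13 of 18 of Grik1, on the minus strand, and at chr10:49244329-49244331 in exon 13 of 17 of Grik2, also on the minus strand. In Grik3 it lies at chr4:125691207-125691209 in exon 12 of 16, on the plus strand. The minus-strand genes Grik4 and Grik5 hold it at chr9:42547623-42547625 in exon 16 of 21 and at chr7:25022497-25022499 in exon 15 of 20. The genes themselves differ greatly in extent. Grik2 (ENSMUSG00000056073) spans 693.9 kb of chromosome 10, Grik4 (ENSMUSG00000032017) 426.4 kb of chromosome 9 and Grik1 (ENSMUSG00000022935) 394.4 kb of chromosome 16. Grik3 (ENSMUSG00000001985) spans 223.5 kb of chromosome 4, and Grik5 (ENSMUSG00000003378) only 62.5 kb of chromosome 7. Summed exon length runs from 5168 bases for Grik5 to 13246 bases for Grik2, which is the length used below to set levels of different genes side by side. Grik4 shares 59 of its 5962 exon bases with Gm24420, an annotated small RNA gene on the same strand, and the other subunits share no exon base with another gene.

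Depth was 16.7 to 19.9 M reads per library. The labels also name a mesenchymal stem cell line, so the tissue was checked against markers of brain cells. Slc17a7, the vesicular glutamate transporter of cortical excitatory neurons, stood at 300.5 to 421.7 FPKM (reads per kilobase of exon and per 1 M reads), and Gad1, which makes GABA in interneurons, at 28.1 to 40.3. No gene of the 10 marker lists for neurons (striatal ones included), glia, vessel, choroid plexus and blood cells was at 0 in every library. That is a weak check at this depth, since even the choroid plexus marker Folr1, at a mean of 0.132 FPKM, met it. Markers of mesenchymal stem cells were not looked at. Oligodendrocyte markers varied widely within groups, summing to 316 to 2370 FPKM in saline and 491 to 1953 in cocaine libraries. Choroid plexus markers were at 0.551 to 539.2 FPKM in saline and 0.271 to 1.64 in cocaine libraries, the high value being saline 5.

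Grik5 was the dominant kainate receptor transcript in this tissue. Per length and over all 12 libraries, the level of Grik5 was 62.9 ± 8.21 FPKM and that of Grik3 was 18.3 ± 5.64 (SD, n = 12). Grik4 followed at 5.28 ± 0.832 FPKM, Grik2 at 4.63 ± 0.396 and Grik1 at 2.09 ± 0.283. The order was nearly the same in each library. Grik5 exceeded Grik3 in 12 of 12 libraries, by a factor of 1.97 to 5.71, and the ranges of both genes did not overlap. Grik3 exceeded Grik4 in 12 of 12 as well, by a factor of 2.52 to 4.74. Grik4 and Grik2 were the neighbours that could not be separated: Grik4 was higher in 9 of 12 libraries, the factor ran from 0.884 to 1.45, and their ranges overlapped. Grik1, the subunit with the lowest level, was below Grik2 in 12 of 12 libraries, by a factor of 1.84 to 2.93. These ratios are descriptions across genes, since mapping and isoform use can differ from gene to gene.

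**Figure D1:**
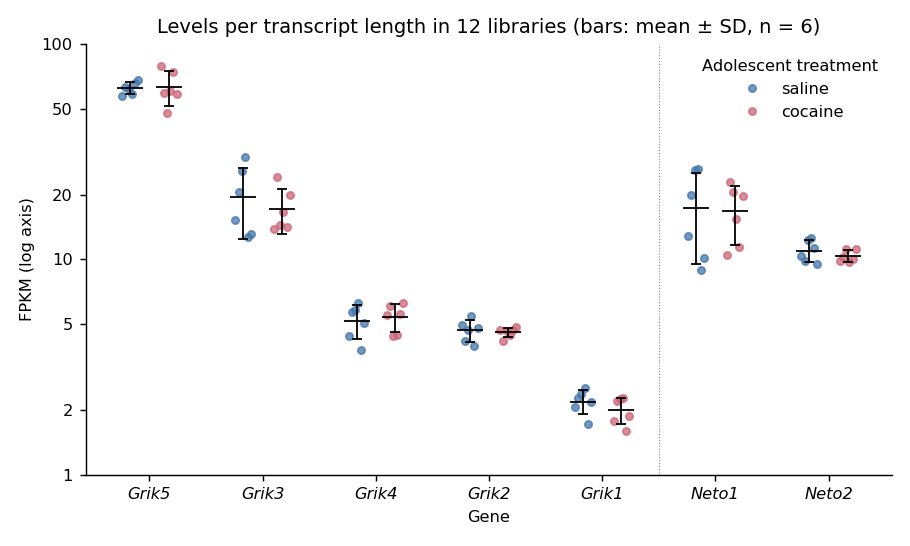
FPKM (vertical, log axis) of each subunit and of the auxiliary genes Neto1 and Neto2 in 6 saline and 6 cocaine libraries, with 1 point per library and bars for mean ± SD. Grik5 lies above every other subunit in both groups, Grik4 and Grik2 share a range, and for all 7 genes the saline and cocaine points overlap.

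None of the 5 subunits passed the test between adolescent cocaine and adolescent saline. The same test across the transcriptome (limma, Benjamini-Hochberg adjusted p under 0.05) called 0 of 13016 genes, which is 0%. With an unadjusted p under 0.05 it gave 149 genes (1.14%), of which 0 were kainate receptor subunits. Counted reads gave 0 of 16057 genes with edgeR (253 unadjusted, 1.58%) and 3 of 28827 with DESeq2 (0.0104%; 428 unadjusted, 1.48%), again with no subunit past the adjusted threshold. Groups that did not overlap occurred for 10 genes (0.0768%) and for no subunit. The sign was negative for 4 of 5 subunits (Grik1, Grik2, Grik3 and Grik5, the last turning positive with edgeR, at 0.0160, and DESeq2, at 0.0122), beside 46.3% of all genes tested. The median log2 difference of the subunits was -0.03 beside 0.01 for all tested genes. In this bulk tissue, fewer cells of a type and less RNA per cell cannot be told apart. The values per subunit are given next as normalised read counts, with differences as log2 of cocaine over saline.

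Grik1 encodes GluK1, which in cortex is known chiefly from interneurons. Its lowest, median and highest normalised read counts were 199, 260 and 308 in saline and 187, 244 and 269 in cocaine libraries. The cocaine range lay mostly inside the saline range, with 3 of 6 cocaine libraries below the saline median and none as high as the 3 highest saline libraries. The means were 260 ± 39.8 and 236 ± 34.4 (SD, n = 6 each). The log2 difference was -0.14 ± 0.13 (SE; 95% interval -0.41 to 0.14; limma adjusted p = 1.00; exact permutation p = 0.292, two-sided). The interval allows a fold from 0.754 to 1.10.

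Grik2 encodes GluK2, the most studied low-affinity subunit. It had 901, 1105 and 1310 normalised read counts (lowest, median, highest) in saline and 1013, 1073 and 1140 in cocaine libraries. All 6 cocaine libraries lay within the saline range. The difference was the second smallest among the subunits, at -0.03 ± 0.09 log2 (SE; 95% interval -0.21 to 0.16; limma adjusted p = 1.00; exact permutation p = 0.695). Its interval was also the narrowest, with folds outside 0.864 to 1.12 lying beyond it.

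Grik3 encodes GluK3, a subunit with low glutamate sensitivity that is known from presynaptic sites. Its counts were 1951, 2834 and 4853 in saline and 2174, 2416 and 3949 in cocaine libraries. In each group some libraries stood well above the rest: saline 2, 3 and 4 and cocaine 2 lay at 3311 to 4853, while the lowest 3 saline libraries lay at 1951 to 2356. The means, 3114 ± 1224 and 2721 ± 710 (SD, n = 6), differed by -0.14 ± 0.23 log2 (SE; 95% interval -0.64 to 0.36; limma adjusted p = 1.00; exact permutation p = 0.517). The interval is the widest among the subunits and allows a fold from 0.641 to 1.29.

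Grik4 encodes GluK4, a high-affinity subunit. It was the only subunit with a positive sign. Counts were 391, 559 and 680 in saline and 456, 576 and 663 in cocaine libraries, and all cocaine libraries again fell within the saline range. The difference was 0.06 ± 0.15 log2 (SE; 95% interval -0.25 to 0.38; limma adjusted p = 1.00; exact permutation p = 0.760).

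Grik5 encodes GluK5, the other high-affinity subunit and the usual partner of GluK2. Its counts were 5094, 5855 and 5963 in saline and 4295, 5503 and 7149 in cocaine libraries. Here the saline libraries were the closer group, and the cocaine group held both the highest library (cocaine 1) and the lowest (cocaine 3) of all 12. The means were 5694 ± 332 and 5742 ± 1006 (SD, n = 6), a ratio of cocaine to saline of 1.01. The mean of the log2 values had the opposite sign, with a difference of -0.0046 ± 0.11 (SE; 95% interval -0.24 to 0.23; limma adjusted p = 1.00; exact permutation p = 0.929). The interval allows a fold from 0.849 to 1.17. In the authors' deposited table the log2 fold changes were -0.14, -0.03, -0.19, 0.05 and 0.01 for Grik1, Grik2, Grik3, Grik4 and Grik5, each with an adjusted p of 1.00.

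**Figure D2:**
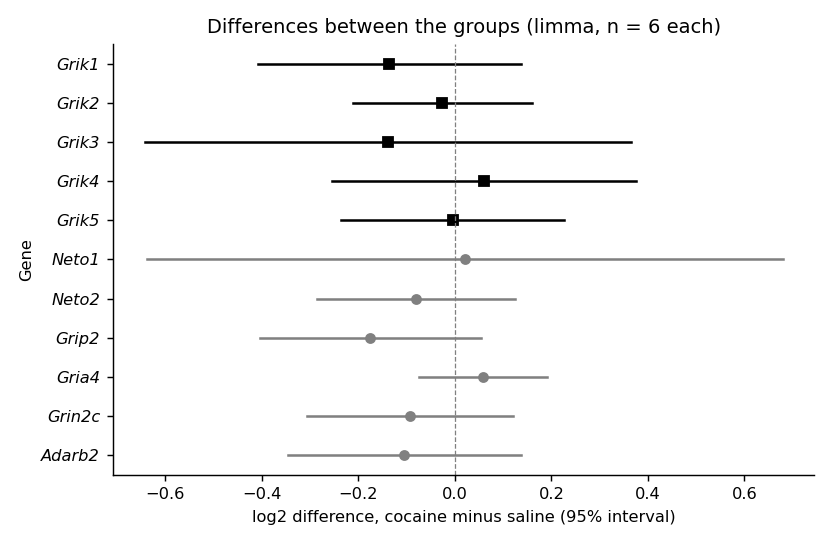
Log2 difference, cocaine minus saline, with its 95% interval from limma (horizontal) for the 5 subunits (black squares), the auxiliary genes Neto1 and Neto2 and the members named from the related lists (grey circles), n = 6 libraries per group. Every interval crosses 0, and those of Grik3 and Neto1 are the widest, reaching -0.64 on the lower side.

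The make-up of the pool of kainate receptor transcripts was described by the share of each subunit in the summed FPKM. These are shares of RNA per exon length and do not give the make-up of the receptor protein. Saline libraries summed to 94.1 ± 7.20 FPKM and cocaine libraries to 92.3 ± 11.0 (SD, n = 6). Grik5 took 66.8 ± 6.73 percent of it in saline and 68.1 ± 5.53 percent in cocaine. Over all libraries that share ran from 57.2 to 75.4 percent, and it was lowest in saline 4. Grik3 took 20.4 ± 6.05 and 18.8 ± 4.54 percent, running from 13.2 to 29.0. The remaining subunits were small parts of the pool: in saline and cocaine, Grik4 took 5.47 ± 0.644 and 5.85 ± 0.676 percent, Grik2 took 4.99 ± 0.590 and 5.03 ± 0.714, and Grik1 took 2.32 ± 0.186 and 2.21 ± 0.551. The ratio of high-affinity to low-affinity transcripts was 2.76 ± 0.836 in the saline group and 2.98 ± 0.841 in the cocaine group, from 1.72 to 4.16 in single libraries. For every share and for this ratio the group means lay closer together than 1 SD of either group. Shares of a fixed whole move against one another, so they carry no test.

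**Figure D3:**
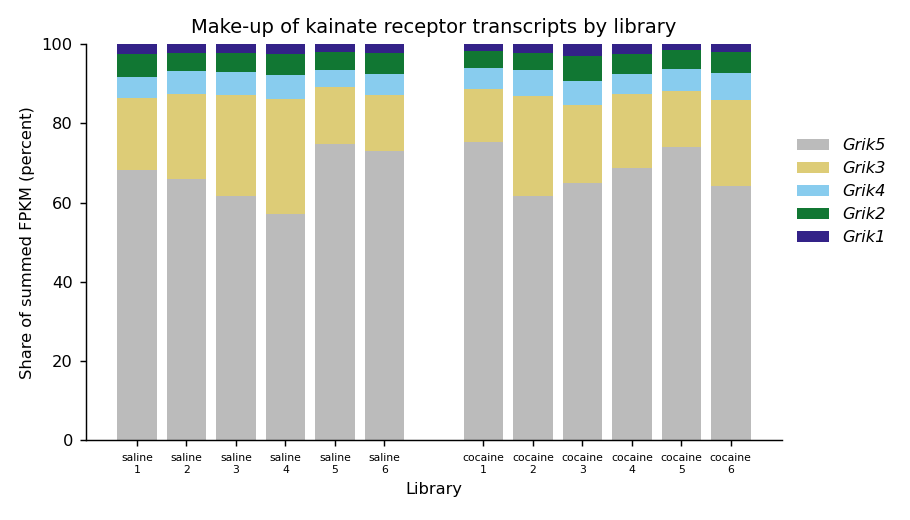
Share of each subunit in the summed FPKM of the 5 subunits (percent, vertical) in each of 12 libraries. Grik5 holds over 57 percent in every library, and its share and that of Grik3 vary within each group by more than they differ between the groups.

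The subunits were not equally steady between libraries. The SD of Grik3 within groups, 0.47 on the log2 scale, was larger than that of 89.9 percent of all tested genes. For Grik4 it was 0.28 (65.4 percent), for Grik1 0.22 (49.0 percent), for Grik5 0.19 (38.5 percent) and for Grik2 0.14 (17.4 percent). Counting error was a small part of this for the abundant subunits: for Grik3 the coefficient of variation over all 12 libraries was 33.5 percent, while counting alone would give 1.85 percent. For Grik1, with 197 to 305 reads per library, it was 15.1 against 6.34 percent. Grik3 also had the largest ratio of highest to lowest library, 2.49, against 1.45 for Grik2.

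Across libraries, with group means removed, 2 of 10 pairs of subunits were correlated past the threshold (permutation test of Pearson's r, adjusted over the 10 pairs). Grik3 and Grik4 had r = 0.808 (n = 12 libraries; permutation p = 0.00235, adjusted 0.0235; Spearman's rho 0.804, permutation p = 0.00254, adjusted 0.0127), and 0.727 without the 2 libraries farthest from the median of Grik3. Grik1 and Grik3 had r = 0.742 (permutation p = 0.00745, adjusted 0.0372; rho 0.867, permutation p = 0.0006, adjusted 0.006), and 0.695 without the 2 libraries farthest from the median of Grik1. Both calls rest on single libraries. Without saline 4 the adjusted permutation p of Grik3 with Grik4 was 0.0866, and without saline 5 it was 0.0905; leaving out any of 6 libraries (saline 1, 3, 4 or 5, cocaine 1 or 2) put that of Grik1 with Grik3 between 0.0569 and 0.137. The r values themselves stayed at or above 0.670 when any library was left out.

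Grik5 did not vary with the other subunits past the threshold. Its r was -0.483 with Grik1 (permutation adjusted p = 0.227), -0.101 with Grik2, -0.118 with Grik3 and 0.288 with Grik4, the high-affinity subunit of the same class (adjusted p = 0.466). Nor did Grik2 pass with any subunit over the 12 libraries. Its r with Grik4 was 0.575 (permutation adjusted p = 0.152), 0.041 without saline 4 and saline 5, and 0.699 without saline 2 (permutation adjusted p = 0.0412).

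The auxiliary subunits Neto1 and Neto2 were expressed at levels between those of Grik3 and Grik4, 17.04 ± 6.28 and 10.7 ± 1.03 FPKM (SD, n = 12). Neto1 had 542, 1016 and 1685 normalised read counts (lowest, median, highest) in saline and 649, 1093 and 1469 in cocaine libraries. The groups overlapped almost fully, and the log2 difference was 0.02 ± 0.31 (SE; 95% interval -0.64 to 0.68; limma adjusted p = 1.00; exact permutation p = 0.842). Neto2 had 990, 1142 and 1398 in saline and 1031, 1105 and 1218 in cocaine libraries, with a log2 difference of -0.08 ± 0.10 (95% interval -0.29 to 0.12; limma adjusted p = 1.00; exact permutation p = 0.368). Neto1 was among the least steady genes, with an SD within groups above that of 94.6 percent of tested genes.

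Neto1 followed Grik3 and Grik1 across libraries. Of 10 pairs of a subunit with a Neto gene, Grik3 with Neto1 had the highest r, 0.920 (n = 12; permutation p = 6e-05, adjusted 0.0006; rho 0.923, permutation p = 7e-05, adjusted 0.0007), and 0.901 without the 2 libraries farthest from the median of Grik3. Grik1 with Neto1 had r = 0.854 (permutation p = 0.00078, adjusted 0.0039; rho 0.881, permutation p = 0.00028, adjusted 0.0014), and 0.811 without 2 libraries. Both pairs passed with any 1 library left out (permutation adjusted p up to 0.0028 and 0.0217). Grik3 with Neto2 passed narrowly by r (0.688; permutation p = 0.0149, adjusted 0.0496) but not by rank (rho 0.608; permutation p = 0.0395, adjusted 0.0988), and it missed the threshold in 8 of 12 omissions of 1 library (saline 1, 3, 4 or 6, cocaine 1, 4, 5 or 6; adjusted p up to 0.175) and under TMM scaling (0.0751). Grik4 with Neto1 passed by rank (rho 0.699; permutation p = 0.0139, adjusted 0.0463) but not by r (0.653; permutation p = 0.0247, adjusted 0.0617), except without cocaine 3 (r = 0.794, permutation adjusted p = 0.0165). Grik5 with Neto1 had r = -0.424 (permutation p = 0.173, adjusted 0.196). An r with Grik3 as high as that of Neto1 was not particular to an auxiliary subunit. The RNA editing enzyme gene Adar had 0.965 with Grik3, and the AMPA receptor subunit gene Gria1 had 0.925. Lower values were those of the NMDA receptor subunit gene Grin1 (0.095) and the AMPA receptor subunit gene Gria4 (0.515).

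These shared movements ran along an axis that touches much of the transcriptome. The first component of the tested genes, computed with group means removed, held 45.7 percent of the variance within groups. It correlated at r = 0.987 across libraries with a length contrast, the median log2 deviation of the 1303 genes of at least 9700 bases minus that of the 1302 genes of at most 1161.5 bases. The length contrast did not separate the groups: saline libraries had 0.00 ± 0.40 and cocaine libraries -0.04 ± 0.33 (exact permutation p = 0.861; SD, n = 6). All 5 subunits entered the component, and Grik2 is also in the long class, so the r values below are not fully independent of the genes they describe.

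Grik3 followed this axis closest. Its r was 0.963 with the first component (n = 12; permutation p = 1e-05, the smallest that 100000 resamples can give, adjusted 0.00015; rho 0.965) and 0.943 with the length contrast (permutation p = 2e-05, adjusted 0.00015). Without the 2 libraries farthest from the median of Grik3 the values were 0.949 and 0.918. For Grik1 the r values were 0.848 (permutation p = 0.0008, adjusted 0.004; rho 0.888) and 0.834 (permutation p = 0.0011, adjusted 0.00412), and for Grik4 0.730 (permutation p = 0.00883, adjusted 0.0221; rho 0.769) and 0.656 (permutation p = 0.0241, adjusted 0.0453). The calls of Grik3 and Grik1 held with any 1 library left out. Those of Grik4 did not: with the first component it was lost without saline 3, 4 or 5 (permutation adjusted p up to 0.188), and with the length contrast without saline 2, 3, 4 or 5 or cocaine 2 or 6. Grik3, Grik1, Grik4 and Grik5 stand in the order of their exon lengths (8973, 6721, 5962 and 5168 bases), both with the first component and with the length contrast. Grik2, the longest at 13246 bases, stands outside that order: it had 0.527 (permutation adjusted p = 0.126, and 0.0450 without cocaine 2) and 0.468, and -0.124 with the component without saline 4 and 5. Grik5 stood at -0.314 (permutation adjusted p = 0.330) and -0.382. Neto1 is shorter than every subunit, at 3531 bases, and its r with Grik3 was 0.920. Whether length sets how closely a gene follows the axis was not tested. In saline 3, saline 4 and cocaine 2, the 3 libraries with a length contrast over 0.36, Grik3 had 4223, 4853 and 3949 normalised read counts. In saline 5, cocaine 1 and saline 6, the 3 lowest, it had 1951, 2174 and 1988. In the same 6 libraries Grik5 had 5880, 5516 and 5576 against 5863, 7149 and 5963.

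**Figure D4:**
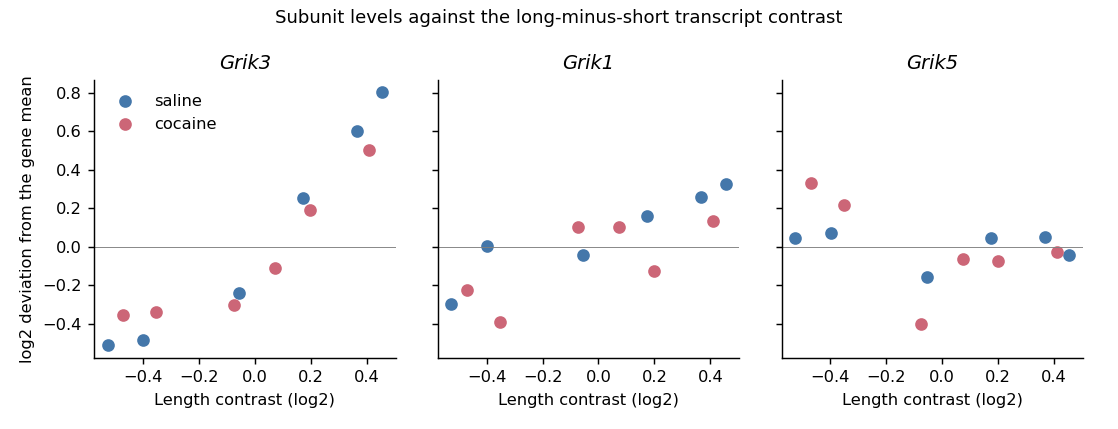
Log2 deviation of Grik3, Grik1 and Grik5 from the gene's mean (vertical) against the length contrast of each library (horizontal, log2), 1 point per library, 6 per group. Grik3 climbs with the contrast in both groups, Grik1 less steeply, and Grik5 does not climb. With group means removed from both measures, which the plot does not do, r was 0.943 for Grik3, 0.834 for Grik1 and -0.382 for Grik5.

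Markers of other cells and the mitochondrial share of reads moved with some subunits, out of 50 pairs of a subunit with a marker list and 15 with a library measure. Grik3 and Grik1 moved with the 12 excitatory neuron markers, at r = 0.824 (permutation p = 0.00152, adjusted 0.0355; rho 0.811, adjusted 0.0625) and 0.751 (permutation p = 0.00596, adjusted 0.0427; rho 0.657, adjusted 0.108). The excitatory list summed to 493 to 595 FPKM in saline and 506 to 608 in cocaine libraries. Grik1 with the 13 interneuron markers had r = 0.439 (permutation adjusted p = 0.309). Grik4 moved against the 10 oligodendrocyte markers (r = -0.803; permutation p = 0.00213, adjusted 0.0355; rho adjusted 0.0625) and against the 4 choroid plexus markers (r = -0.803; permutation p = 0.00038, adjusted 0.019; rho adjusted 0.0836). Without cocaine 3 and saline 5 the r of Grik4 with the choroid plexus list was -0.653. Of those 4 markers only 1, Ttr, passed the filter on low values, and it ran from 0 to 535.6 FPKM. Grik2 with the choroid plexus list had r = -0.756 (permutation p = 0.00598, adjusted 0.0427), and -0.314 without saline 4 and 5. Grik5 moved against the 8 astrocyte markers (r = -0.738; permutation p = 0.00408, adjusted 0.0427; rho -0.664, adjusted 0.108), which summed to 379 to 480 FPKM in saline and 379 to 455 in cocaine. Grik3 moved against the 4 red blood cell genes (r = -0.730; permutation p = 0.00428, adjusted 0.0427). Those blood genes summed to 54.1 to 201.8 FPKM in saline and 95.1 to 184.8 in cocaine libraries. By rank, no pair of a subunit with a marker list passed (smallest adjusted p 0.0625, permutation test of rho). By r, each of these 7 pairs missed the threshold without saline 3 and without saline 5, and most did so without others too. Without saline 5 the adjusted permutation p reached 0.326, for Grik2 with the choroid plexus list, whose r was then -0.469. Mitochondrial reads, 3.24 to 5.43 percent of each library, ran against Grik4 (r = -0.767; permutation p = 0.00268, adjusted 0.00804) and Grik3 (r = -0.681; permutation p = 0.0129, adjusted 0.0277). Without saline 5 the permutation adjusted p values were 0.0586 and 0.129, and Grik3 also missed the threshold without saline 4, cocaine 2 or cocaine 6. Grik1 passed only without cocaine 3 (r = -0.780, permutation adjusted p = 0.0077). The part of these measures in the subunit correlations was not tested.

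The other proteins that bind, traffic or modify kainate receptors were also without a call. Of 23 listed auxiliary subunits and partners (scaffolds, kinases and C1q-like proteins among them), 22 were measured and tested, 8 with a positive and 14 with a negative sign. None passed the adjusted threshold or an unadjusted p of 0.05, and their median log2 difference was -0.02 beside 0.01 for all tested genes. Grip2, a PDZ scaffold of glutamate receptors, had the smallest p on the lower side, with 568 ± 40.0 normalised read counts in saline and 507 ± 77.8 in cocaine (log2 difference -0.17 ± 0.11; limma unadjusted p = 0.124, adjusted 1.00; n = 6).

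The related glutamate receptors served as the nearest comparison. Of 13 AMPA, NMDA and delta receptor subunit genes 12 passed the filter (Grin3b, at 0.051 FPKM, did not), 7 with a positive and 5 with a negative sign, none with an unadjusted p under 0.05. The median log2 difference was 0.01 (range -0.09 to 0.07). Gria4, an AMPA receptor subunit, had 1733 ± 82.7 normalised read counts in saline and 1806 ± 81.7 in cocaine, and Grin2c, an NMDA receptor subunit, had 712 ± 54.8 and 672 ± 91.8, with log2 differences of 0.06 ± 0.06 and -0.09 ± 0.10 (limma adjusted p = 1.00 each). Per length, Grik5 (62.9 FPKM) stood close to Gria1 (68.4), the most abundant AMPA subunit, and above the obligatory NMDA subunit Grin1 (42.6).

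The enzymes that edit RNA were given because of the pore codon printed above. Adarb1, which edits the Q/R sites of glutamate receptors, had 2831 ± 676 normalised read counts in saline and 2728 ± 561 in cocaine. Adar had 2683 ± 934 and 2523 ± 661, and Adarb2, which has no known editing activity, had 261 ± 36.0 and 241 ± 27.5 (SD, n = 6). The 3 signs were negative, with a median log2 difference of -0.05 and no unadjusted p under 0.05 by limma. These are levels of the enzymes' transcripts and carry no measure of editing at the subunits.

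For each subunit, the 3 protein-coding genes with the most similar pattern across the 12 libraries were taken from 11636 candidates by Pearson's r with group means removed. The highest of so many r values is high by selection, so they are given as a description. For Grik3 they were Gpr26, Rnf150 and Itsn1 (r = 0.995, 0.994 and 0.994). For Grik1 they were N4bp2l2, 8030462N17Rik and Eif4h (0.973, 0.961 and 0.955), and for Grik2 the zinc finger genes Zfp346, Zfp846 and Zfp607b (0.941, 0.908 and 0.908). Grik4 was most like Sirpa, Pfkp and Mpped1 (0.973, 0.967 and 0.966). Grik5 was most like Psd, Agap3 and Begain (0.975, 0.957 and 0.956), and no gene appeared in more than 1 of the 5 sets.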

How the data were processed

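The authors deposited 1 table with a signal per gene and library. Each value is a read count scaled by a library's own size factor, since all of them (100 percent) came out as whole reads once divided by what 1 read was worth there (tolerance 0.01 read). Columns deposited by the authors with a log2 fold change and a p-value were used only where named. Gene length in bases is a further column, per the file headers. Per the submitters' processing notes the aligner was HISAT2 2.0.5 and the build hg38, a human one; the gene coordinates in the table equal those of GRCm38 for all 5 subunits. How reads were counted, with which strand setting and annotation, is not given in the sources used here. Reads of overlapping antisense transcripts or of near-identical stretches therefore cannot be assigned with certainty. In GENCODE M21 no antisense exon overlapped an exon of the 5 subunits. Shared stretches were compared only among the subunits (longest exact run 46 bases), not with other genes.

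FPKM was computed from the deposited values, the gene length and the column sum. Genes with mean FPKM of 1 or more, 13016 in all, entered limma 3.58.1 (empirical Bayes with trend, R 4.3.3) on log2(value + 1), two-sided, no covariates, 6 against 6 libraries, with Benjamini-Hochberg adjustment. Differences on this scale understate changes of low genes. Single genes also had an exact permutation test over 924 splits, whose smallest p is 0.00216. Correlations used log2(value + 1) with group means removed and 100000 resamples. edgeR 4.0.16 and DESeq2 1.42.0 were run on the recovered reads as alternatives. Coding sequences were aligned with mafft 7.526. The fit was tested on simulated data.

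The members and the 14 gene lists were chosen with earlier results of these data known. Named genes were the 5 subunits, Neto1, Neto2, the member of each of 3 related lists with the smallest p in each direction, and the 3 genes most like each subunit. Others were named after their values were seen: marker genes, Grin3b, Gria1, Grin1, Adar and Adarb1. Values of some genes that the rule named are not reported here. Klhl17 is listed but was not analysed here. Groups come from the treatment label. Alternatives covered pseudocount, filter, scaling, variance model, library weights, replicate block, time tag, count tests and leaving out each library.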

Additional observations from a re-analysis of the deposited data

Results flagged for a closer look

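A library that stood far from the other 5 of its group was looked for in 36 groups of 6 (18 quantities in each of 2 treatment groups), and 2 were found, where chance gives about 1 in 20, or 1.8. The first was Adarb2 in cocaine 2, at 294.3 normalised read counts; the nearest cocaine library had 241.7 and the lowest 216.8. The other was the share of Grik1 in the summed FPKM of the 5 subunits in saline 5, at 1.96 percent; the nearest saline library had 2.32 percent and the highest 2.45 percent. Saline 5 is also the library with the high choroid plexus markers and the lowest length contrast (-0.53). The part of these measures in the Grik1 share was not tested.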

How the results depend on the processing

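No subunit passed the adjusted threshold under any setting, and the signs of Grik1 and Neto2 held in all. Depth limits Grik1 most, at 197 to 305 reads per library. With only the odd-numbered libraries of each group (time tag day 0), Grik2 had 0.0308, Grik5 0.0692 and Neto1 -0.10 (log2). In that fit 1 gene passed the threshold in the whole table. With only the even-numbered libraries (day 5), Grik3 had 0.0048 and Grik4 -0.0195. No interaction with the time tag passed (adjusted p 0.966 to 0.995). edgeR gave Grik5 0.0160 and Neto1 -0.0562, and without a count filter 0.00088 and -0.0677; DESeq2 gave 0.0122 and -0.0628, with 3 genes past the threshold. Library weights gave Neto1 -0.0582. Leaving out each library gave ranges of -0.21 to -0.07 for Grik1, -0.0797 to 0.0284 for Grik2, -0.26 to 0.0074 for Grik3, -0.0301 to 0.13 for Grik4, -0.0716 to 0.0754 for Grik5 and -0.15 to 0.18 for Neto1. Pairs of subunits past the threshold ranged from 0 to 3: 0 without saline 4 or saline 5, and 1 without saline 1, saline 3, cocaine 1 or cocaine 2. The r of Grik3 with Grik5 ranged from -0.355 to 0.0131 (without cocaine 1), and that of Grik5 with the mitochondrial percent from -0.465 to 0.309 (without cocaine 3). Grik4 with the length contrast was no longer past the threshold under TMM (0.634, permutation adjusted p = 0.0577), and its r with the first component (0.540 to 0.820) was lost without saline 3, 4 or 5. Under TMM 4 of the 7 marker pairs also missed the threshold (permutation adjusted p 0.0523 to 0.0574). The cause of these shifts was not tested. The filter at mean FPKM 5 leaves out Grik1 and Grik2.

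Same-numbered libraries did not as a rule deviate together (r from -0.399 to 0.435). Saline 2 (0.435) and saline 5 (0.389) were most like the cocaine library of their own number. Correlations over all tested genes cannot show whether the replicate numbers pair the libraries. Each replicate number has a saline and a cocaine library, so a replicate block cannot move the differences. They stayed at -0.14, -0.03, -0.14, 0.06 and -0.0046 for Grik1 to Grik5, with 0 genes past the threshold (150 with an unadjusted p under 0.05). The SE was smaller than in the main fit for Grik1 (0.0857), Grik3 (0.202) and Neto1 (0.206). For Grik2 (0.0905), Grik4 (0.157), Grik5 (0.116) and Neto2 (0.101) it was larger. With the first component as a covariate, chosen after seeing the data, the estimates do not move by construction. The interval of Grik3 was then -0.29 to 0.01 and that of Grik1 -0.31 to 0.04, with 0 genes past the threshold (423 unadjusted). The component was computed from these same genes, so narrower intervals for genes that follow it are also built in.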
